A study of Mus musculus with 6 samples.

Results

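The transcription factor p53 is stabilized when DNA is damaged or when cells are otherwise stressed, and it then binds DNA and switches on a set of genes that halt the cell cycle, repair DNA, start apoptosis or feed back on p53 itself. Bleomycin, used here to injure the lung, is a drug that breaks DNA. The 10 p53 target genes described here were chosen by symbol: Cdkn1a, Mdm2, Gdf15, Phlda3, Bax, Ccng1, Trp53inp1, Sesn2, Perp and Eda2r. They were chosen with earlier results of these data known, so their counts beside the share of all genes are a description. All 10 had a row in each of the 6 count tables, which shared 20490 gene symbols.

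The data were droplet single-cell RNA sequencing of Pdgfra+ lung fibroblasts (FBs) and of alveolar organoids from mice. There was 1 library for each of 6 conditions, and each was made from 3 pooled mice, so that a difference between conditions cannot be told apart from a difference between libraries. No p-value is therefore given. Counts are unique molecular identifiers (UMIs), each standing for 1 captured mRNA molecule. All intervals are exact 95% intervals for counting error alone, and they say nothing about the spread between mice. Levels are CPM, a gene's UMIs scaled to a fixed total of all UMIs in the summed cells of a group. Fewer cells that express a gene and less of it per cell cannot be told apart in such a sum, so shares of cells are given as well.

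All FBs came from adult male mice with a Pdgfra-GFP reporter, 10 to 14 weeks old, and were sorted as GFP+ cells. In the single-dose pair, mice received PBS or bleomycin once by oropharyngeal aspiration in 50 µl, and lungs were taken at day 14. For the bleomycin library of this pair one label says 2 U/kg (the protocol) and another says 4 U/kg. In the repetitive pair, mice received PBS or 3 weekly doses of bleomycin of 1, 1 and 0.5 U/kg, and lungs were taken 14 days after the last dose. In the organoid pair, tomato+ type 2 alveolar epithelial cells (AEC2s) from SpcCreER × Rosa-td26 mice induced with tamoxifen, which had received no bleomycin, were cultured for 2 weeks with GFP+ FBs from mice given PBS (normal FBs) or 2 U/kg bleomycin (fibrogenic FBs). The reporter follows Pdgfra, so the sort was for Pdgfra+ fibroblasts, and small numbers of immune, endothelial and other cells came through it.

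The libraries held 1015 to 10737 barcodes and 7201081 to 238618743 UMIs. Barcodes with at least 2000 UMIs and at most 20% mitochondrial UMIs were kept, which left 936 to 6000 per library. Cells were grouped by markers that included no p53 target. Lung FBs numbered 857 (single-dose PBS), 735 (single-dose bleomycin), 5300 (repetitive PBS) and 5230 (repetitive bleomycin). FB markers (8 genes, collagens and Pdgfra among them) summed to between 7169 and 24286 CPM in these 4 groups, against epithelial markers (7 genes) of 1.10 to 3.18 CPM and AEC2 markers (7 genes, surfactant genes among them) of 44.1 to 117 CPM. The marker gates gave alveolar FBs (lipofibroblast markers such as Tcf21 and Npnt), MatrixFBs (Pi16, Dpt and others), Sfrp1+ FBs, Cthrc1+ FBs and a few cycling FBs. Their limits passed through well-filled ranges: in repetitive bleomycin 994 FBs held 1 Sfrp1 UMI and 639 held 2, the limit, 176 and 53 did so for Cthrc1, and 849 FBs had 2 alveolar markers and 983 had 3, the limit. Pairs of libraries shared 0 to 30 barcodes, at most 0.456% of the smaller library.

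Of the members, 3 carried a close match to the p53 consensus, a pair of motifs of 10 bases each, in the promoter window of RefSeq (GRCm38.p6, 250 bases before to 50 bases after the start site). These windows are shown because they hold the closest matches among the members, and the capitals mark the match on the strand of the gene.
Cdkn1a, chr17:29090729-29091028, plus strand: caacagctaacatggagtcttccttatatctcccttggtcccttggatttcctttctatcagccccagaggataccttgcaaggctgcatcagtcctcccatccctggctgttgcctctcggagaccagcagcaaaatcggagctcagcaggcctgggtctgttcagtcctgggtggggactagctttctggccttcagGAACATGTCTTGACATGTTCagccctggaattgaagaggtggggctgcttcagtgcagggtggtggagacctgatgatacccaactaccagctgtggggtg
Bax, chr7:45466849-45467148, minus strand: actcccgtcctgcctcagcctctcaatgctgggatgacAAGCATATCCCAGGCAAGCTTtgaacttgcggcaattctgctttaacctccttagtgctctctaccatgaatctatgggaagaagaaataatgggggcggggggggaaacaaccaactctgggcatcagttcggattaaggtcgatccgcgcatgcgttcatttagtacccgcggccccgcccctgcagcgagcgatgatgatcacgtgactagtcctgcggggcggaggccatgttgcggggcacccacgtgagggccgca
Ccng1, chr11:40755237-40755536, minus strand: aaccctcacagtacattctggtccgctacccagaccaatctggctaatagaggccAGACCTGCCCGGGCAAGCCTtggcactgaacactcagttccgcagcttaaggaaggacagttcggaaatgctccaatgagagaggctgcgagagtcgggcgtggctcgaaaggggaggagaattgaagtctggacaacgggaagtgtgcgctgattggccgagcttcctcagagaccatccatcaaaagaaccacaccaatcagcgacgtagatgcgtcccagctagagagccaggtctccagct
Each match differed from the consensus at 1 letter, with at most 1 base between its 2 motifs. It began 51 bases before the start site of the window shown in Cdkn1a, 212 in Bax and 195 in Ccng1. Cdkn1a had another window, at chr17:29093519-29093818, that held neither such a match nor a whole motif. Such a match was in 58 of all 32851 promoter windows (0.177%), and because the consensus is palindromic, one scan covers both strands. A window was listed for 8 of the members, all but Trp53inp1 and Perp. Mdm2 held a single motif of 10 bases, GAACTTGCCT, 186 bases before its start, as did 8.36% of all windows. Among 28 other p53 targets, 23 had a window, and Polk and Rps27l held a match of the same quality. A match is a stretch of letters and was not tested as a binding site.

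In FBs of the injured lung, the arrest gene Cdkn1a (the inhibitor of cyclin-dependent kinases known as p21) was higher than in PBS in both experiments. It stood at 103 CPM (611 UMIs) in single-dose PBS and 342 CPM (3006 UMIs) in single-dose bleomycin, and at 153 CPM (8960 UMIs) in repetitive PBS and 286 CPM (15757 UMIs) in repetitive bleomycin. The ratio was 3.31 (3.03 to 3.62) after the single dose and 1.87 (1.82 to 1.91) after repetitive dosing. The PBS libraries also differed from each other. Of the 10 members, 7 were at least 1.5-fold higher after the single dose, where 18.4% of 11871 genes were, and 7 after repetitive dosing, where 12.5% of 16983 genes were. None was 1.5-fold lower in either, where 9.93% and 5.25% of genes were. At 2-fold, 6 were higher after the single dose (8.89% of genes) and 2, Gdf15 and Eda2r, after repetitive dosing (5.69%). The 7 were the same genes in both: Cdkn1a, Mdm2, Gdf15, Phlda3, Bax, Sesn2 and Eda2r.

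Ccng1, the cyclin G1 gene and another early p53 target, was just under the 1.5-fold limit in both pairs. Its level was 57.5 CPM in single-dose PBS and 85.5 CPM in bleomycin, a ratio of 1.49 (1.31 to 1.70). In the repetitive pair it was 36.5 and 53.9 CPM, a ratio of 1.47 (1.39 to 1.56). Both intervals lay above 1.

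Among the genes that feed back on p53, Mdm2, the ubiquitin ligase that degrades it, was at 25.0 CPM in single-dose PBS and 69.4 CPM in bleomycin, and at 40.9 and 64.7 CPM in the repetitive pair. The ratios were 2.77 (2.31 to 3.34) and 1.58 (1.5 to 1.67). Trp53inp1, a nuclear protein that promotes p53-dependent death and autophagy, was at 18.9 and 27.6 CPM in the single-dose pair and at 40.0 and 55.2 CPM in the repetitive pair. Its ratios, 1.46 (1.16 to 1.84) and 1.38 (1.31 to 1.46), were below the 1.5-fold limit.

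Bax, Phlda3 and Eda2r were also higher in bleomycin. Bax, which permeabilizes the outer mitochondrial membrane, was at 95.8 CPM in single-dose PBS and 210 CPM in bleomycin, and at 81.8 and 139 CPM in the repetitive pair, for ratios of 2.19 (1.99 to 2.41) and 1.70 (1.64 to 1.77). Phlda3, a pleckstrin homology domain protein that restrains Akt, was at 201 and 391 CPM and at 127 and 234 CPM, for ratios of 1.94 (1.82 to 2.08) and 1.84 (1.79 to 1.89). These intervals overlapped between the 2 experiments for Phlda3 and not for Bax. Eda2r, a receptor for ectodysplasin A2, was sparse in single-dose PBS (14 UMIs, 2.37 CPM) and at 9.55 CPM in bleomycin, and it was at 9.30 and 30.2 CPM in the repetitive pair. Its ratios were 4.04 (2.28 to 7.70) and 3.25 (2.95 to 3.58), and in the repetitive pair it lay above 97.7% of the genes tested.

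Perp, a desmosomal and apoptotic membrane protein of epithelia, was almost absent from FBs. Single-dose PBS FBs gave 0 UMIs, where 3 counts would be 0.507 CPM, and single-dose bleomycin FBs gave 1. The repetitive FBs gave 11 and 14 UMIs (0.188 and 0.254 CPM). Its repetitive ratio of 1.35 had an interval from 0.569 to 3.29, and no difference was detectable at this depth.

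Sesn2 and Gdf15 are also targets of the integrated stress response, the pathway that slows translation and induces Atf4. Sesn2, a leucine sensor that dampens mTORC1, was at 1.52 CPM (9 UMIs) in single-dose PBS and 10.0 CPM (88 UMIs) in bleomycin, a ratio of 6.58 (3.31 to 14.9). In the repetitive pair it was at 3.22 and 6.56 CPM, a ratio of 2.04 (1.70 to 2.44). Gdf15, a secreted stress cytokine of the TGF-β family, was at 1.86 CPM (11 UMIs) and 8.07 CPM (71 UMIs) in the single-dose pair, a ratio of 4.34 (2.29 to 9.09). Its repetitive levels were 7.42 and 16.1 CPM, a ratio of 2.17 (1.93 to 2.44). Both genes rest on few molecules, and their single-dose intervals are wide.

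The members were next read in each FB subset. Alveolar FBs were 79.5% of single-dose PBS FBs and 23.0% of single-dose bleomycin FBs, and 75.7% and 25.9% in the repetitive pair, so a ratio over all FBs also mixes subsets in different shares. The gates were applied in the order cycling, Cthrc1+, MatrixFB, Sfrp1+ and alveolar. An FB with 2 Sfrp1 UMIs was therefore not counted as alveolar, whatever its alveolar markers. Sfrp1+ FBs were 5.95% and 42.9% of FBs in the single-dose pair and 11.0% and 35.5% in the repetitive pair. In single-dose bleomycin their alveolar markers summed to 3461 CPM. The part of this order in the shares and ratios was not tested. Within alveolar FBs, Cdkn1a was at 78.4 CPM in single-dose PBS and 369 CPM in bleomycin, a ratio of 4.70 (4.13 to 5.36), and at 126 and 344 CPM in the repetitive pair, a ratio of 2.73 (2.62 to 2.85). Both ratios were larger than over all FBs. The gated alveolar FBs were not alike in their own markers, whose sum was 13427 CPM in single-dose PBS and 6162 CPM in bleomycin and 8654 and 5375 CPM in the repetitive pair. Immune markers summed to 14.0 and 26.4 CPM in them in the single-dose pair and to 2.00 and 12.6 CPM in the repetitive pair, and AEC2 markers to 119 and 97.8 CPM and to 44.8 and 160.1 CPM. In the repetitive pair 5 of 5 immune and 5 of 7 AEC2 markers were at least 1.5-fold higher, with median log2 differences of 1.20 and 1.06, and the part of such other RNA in the member ratios was not tested. After the single dose, 9 of the 10 members were at least 1.5-fold higher in alveolar FBs, where 16.2% of 10256 genes were. That share is over genes with at least 20 UMIs, which only 7 of the members reached. After repetitive dosing 7 were, where 13.0% of 14946 genes were. None was lower in either, where 10.9% and 5.57% were. At 2-fold, 7 and 5 were higher (5.86% and 5.71% of genes). The median log2 difference was 1.20 over the 7 members with at least 20 UMIs after the single dose, against 0.07 over all genes, and 1.07 over 9 members against 0.09 after repetitive dosing.

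**Figure D1:**
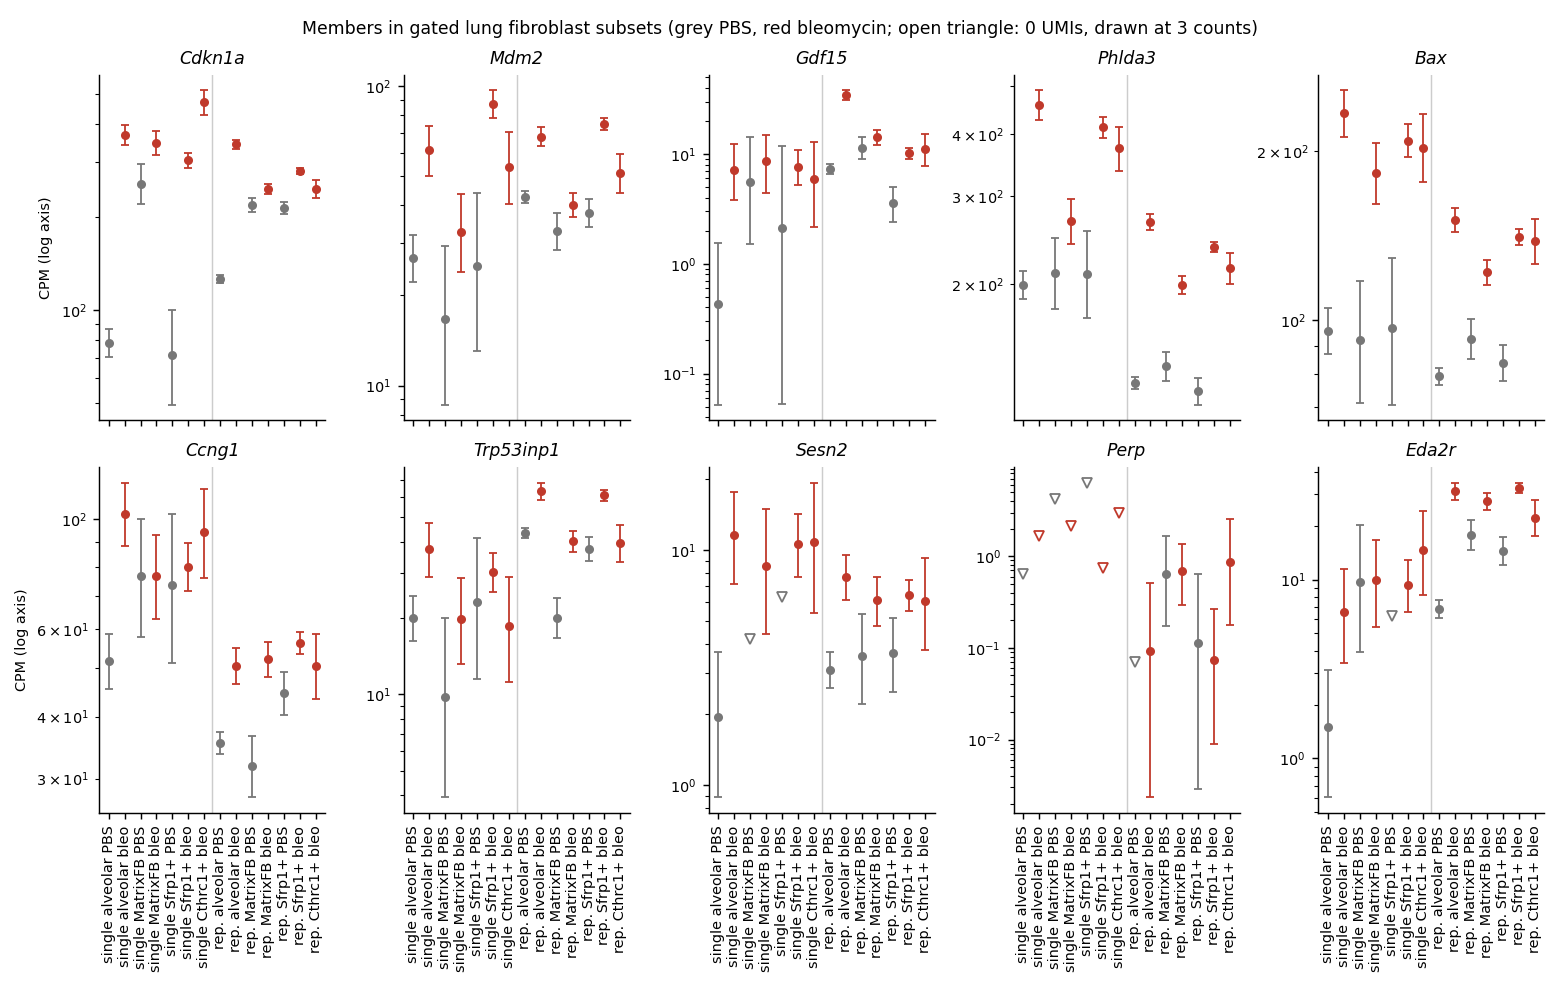
CPM of each member (log axis, one panel a gene) in the gated FB subsets of the 4 lung libraries, with exact 95% counting intervals as bars; grey points are PBS, red points bleomycin, and open triangles mark 0 UMIs, drawn at 3 counts. Cdkn1a in alveolar FBs stood at 78.4 and 126 CPM in PBS and at 369 and 344 CPM in bleomycin, while the grey and red points of MatrixFBs lay closer together.

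For Sesn2 and Gdf15 the single-dose ratios of alveolar FBs rested on few UMIs in PBS. Sesn2 had 9 UMIs in PBS (1.94 CPM) and 21 in bleomycin (11.5 CPM), a ratio of 5.95 (2.61 to 14.8). Gdf15 had 2 UMIs in PBS and 13 in bleomycin, a ratio of 16.6 whose interval runs from 3.75 to 151. In the larger repetitive libraries Gdf15 was at 7.28 CPM (313 UMIs) in PBS and 34.3 CPM (371 UMIs) in bleomycin, a ratio of 4.71 (4.04 to 5.50), above 99.0% of the genes tested. Eda2r was at 6.86 and 31.2 CPM there, a ratio of 4.54 (3.87 to 5.33).

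MatrixFBs, the adventitial fibroblasts marked by Pi16 and Dpt, differed less between PBS and bleomycin in Cdkn1a and Phlda3. Their Cdkn1a was already at 256 CPM in single-dose PBS and at 347 CPM in bleomycin, a ratio of 1.35 (1.14 to 1.61). In the repetitive pair it was at 219 and 246 CPM, a ratio of 1.13 (1.05 to 1.20). Neither interval reached the interval of the alveolar FB ratio of the same experiment. Phlda3 showed the same order, with MatrixFB ratios of 1.27 (1.05 to 1.54) and 1.46 (1.35 to 1.58) beside 2.30 (2.09 to 2.53) and 2.10 (2.01 to 2.20) in alveolar FBs. Trp53inp1 did not: after repetitive dosing its ratio was 2.00 (1.64 to 2.46) in MatrixFBs and 1.46 (1.34 to 1.6) in alveolar FBs. In MatrixFBs 4 members were 1.5-fold higher in each experiment, where 15.1% and 9.78% of genes were, and none was lower, where 13.2% and 4.85% were. At 2-fold 1 and 0 were higher, where 6.26% and 3.53% of genes were. The 4 of the single dose counted Sesn2, with 0 UMIs in PBS, where 3 counts would be 4.18 CPM, against 8.53 CPM in bleomycin. Other markers differed in MatrixFBs as well: in the single-dose pair their own markers summed to 6920 and 4265 CPM, alveolar markers to 3588 and 780.5 CPM, mural markers to 25.1 and 148 CPM, mesothelial markers to 1.39 and 74.6 CPM and immune markers to 11.1 and 20.6 CPM. Of the 4 mesothelial markers, 3 had 0 UMIs in each MatrixFB group of that pair. In the repetitive pair the same sums were 6666 and 5940 CPM, 2379 and 1239 CPM, 23.1 and 45.1 CPM, 49.5 and 20.2 CPM, and 2.25 and 16.2 CPM. Their part in the member ratios was not tested. These comparisons were added after the data had been examined.

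**Figure D2:**
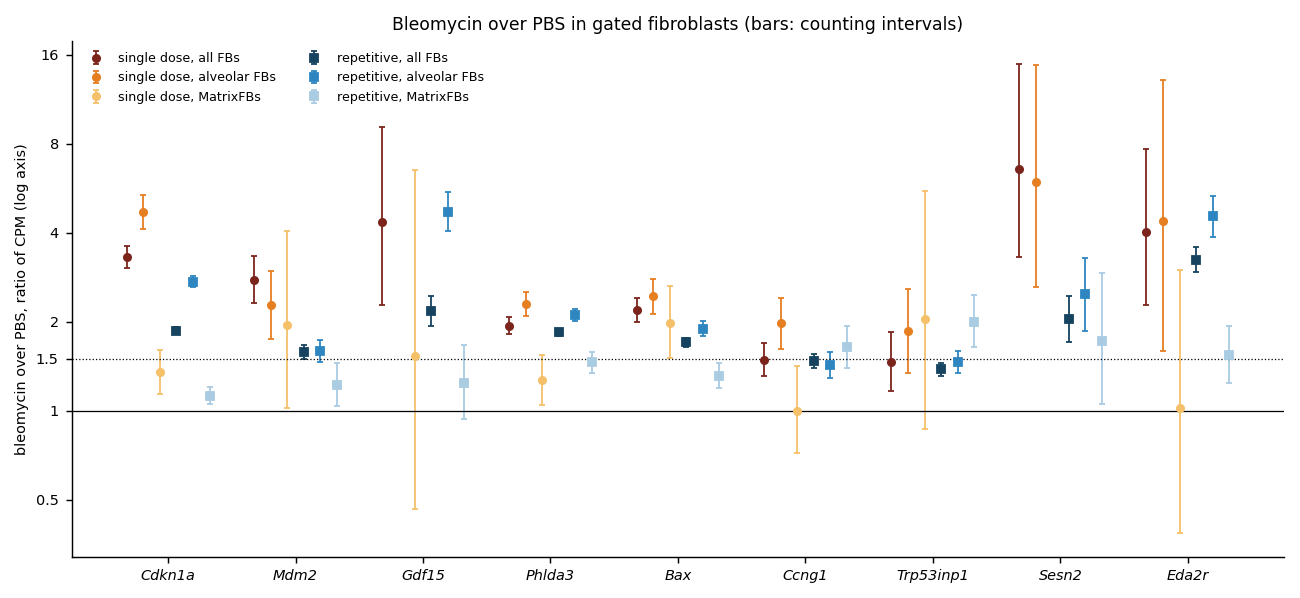
Ratio of CPM, bleomycin over PBS (log axis), for 9 members in all FBs, alveolar FBs and MatrixFBs; bars are exact 95% counting intervals, the solid line is 1 and the dotted line 1.5. Ratios with fewer than 3 PBS UMIs and Perp are not drawn, and Cdkn1a separates alveolar FBs (4.70 and 2.73) from MatrixFBs (1.35 and 1.13).

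Within the bleomycin libraries, the injury-associated Sfrp1+ and Cthrc1+ FBs were set against the alveolar FBs of the same library, which both comparisons share. Cdkn1a in the single-dose bleomycin library was at 470 CPM in Cthrc1+ FBs (63 cells), 369 CPM in alveolar FBs (169 cells), 347 CPM in MatrixFBs (154 cells) and 305 CPM in Sfrp1+ FBs (315 cells). In the repetitive bleomycin library the order of the same 4 subsets was 344 CPM in alveolar FBs (1355 cells), 281 CPM in Sfrp1+ FBs (1857 cells) and 246 CPM in both Cthrc1+ FBs (183 cells) and MatrixFBs (1581 cells). Among these 4 subsets Cthrc1+ FBs were thus highest after the single dose and, with MatrixFBs, lowest after repetitive dosing. The FBs that passed no subset gate (18 and 239 cells) stood at 773 and 404 CPM, but 1 of the 18 cells held 40 of their 73 Cdkn1a UMIs and 12 of the 239 held 65.4% of theirs, so they are not placed in the order. The ratio of Cthrc1+ to alveolar FBs was 1.27 (1.13 to 1.43) in the first and 0.716 (0.664 to 0.772) in the second. Cdkn1a was uneven within the 4 subsets as well. The 5% of cells with the most of it held 38.5% to 48.4% after the single dose and 42.8% to 53.6% after repetitive dosing. In Cthrc1+ FBs these were 4 of 63 cells with 41.9% and 10 of 183 cells with 49.7%. The counting intervals do not cover such unevenness, so the order can rest on few cells. In single-dose bleomycin the levels of alveolar FBs and MatrixFBs did not differ beyond their counting intervals.

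Few other members passed the 1.5-fold limit between these subsets. In Cthrc1+ over alveolar FBs more were lower without the 5% of barcodes with the most UMIs. In Sfrp1+ over alveolar FBs, 0 of the 10 were 1.5-fold higher after the single dose, where 7.93% of 10374 genes were, and 0 were lower, where 6.42% were. After repetitive dosing 0 were higher (3.26% of 14580 genes) and 1 was lower (2.76%). The one lower was Gdf15, at 10.1 CPM in Sfrp1+ FBs and 34.3 CPM in alveolar FBs, a ratio of 0.295 (0.251 to 0.345). In Cthrc1+ over alveolar FBs, 1 member was higher and 1 lower after the single dose, where 12.2% and 19.1% of 8926 genes were. Those were Eda2r (ratio 2.23, 0.973 to 5.21) and Trp53inp1 (ratio 0.498, 0.283 to 0.838). After repetitive dosing 1 was higher and 2 lower, where 10.5% and 14.2% of 12851 genes were. At 2-fold, 0 were lower after the single dose (8.12% of genes), and 0 were higher and 1 lower after repetitive dosing (5.73% and 6.57%). At 1.5-fold, Perp was the higher one of repetitive dosing, on 3 UMIs against 1, and Gdf15 (ratio 0.320, 0.223 to 0.447) and Trp53inp1 (ratio 0.624, 0.516 to 0.751) were the lower ones.

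Against alveolar FBs of the PBS library, a comparison added after the data had been examined, Sfrp1+ FBs had 8 members at least 1.5-fold higher after the single dose (18.5% of 10887 genes) and 7 after repetitive dosing (13.7% of 15609 genes). Cthrc1+ FBs had 8 and 6 (20.3% of 10168 genes and 18.2% of 14656 genes). Their Cdkn1a ratios to PBS alveolar FBs were 3.89 (3.46 to 4.38) and 2.23 (2.16 to 2.31) in Sfrp1+ FBs and 5.99 (5.22 to 6.89) and 1.96 (1.82 to 2.10) in Cthrc1+ FBs. In repetitive PBS, Sfrp1+ FBs already stood above alveolar FBs, with 1871 Cdkn1a UMIs of 8758662 against 5412 of 43003875. In single-dose PBS they did not, with 34 of 476606 against 364 of 4641533. The Sfrp1+ ratios thus set unlike subsets side by side, and the part of this was not tested. Trp53inp1 did not differ beyond counting error in Cthrc1+ FBs, with ratios of 0.928 (0.535 to 1.53) and 0.913 (0.762 to 1.09).

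Single cells were compared at one depth by drawing 2000 UMIs from each. The share of alveolar FBs with a Cdkn1a UMI was then 9.69% (7.57 to 12.2) in single-dose PBS and 28.4% (21.7 to 35.8) in bleomycin, and 14.2% (13.1 to 15.3) and 28.3% (25.9 to 30.7) in the repetitive pair. Before thinning the shares were 20.9% and 53.8%, and 34.0% and 44.0%. Free RNA in droplets gives such UMIs to any cell, so lymphocytes serve as a background: 1 of 76 T cells and 0 of 38 B cells in repetitive PBS, and 4 of 53 and 1 of 74 in repetitive bleomycin, had a Cdkn1a UMI at this depth. Median depths before thinning were 10297 and 6302 UMIs in the repetitive alveolar FBs and 3690 and 4562 UMIs in the T cells. The shares of alveolar FBs exceeded those of lymphocytes in both repetitive libraries beyond the counting intervals. The share of all FBs with at least 3 different members detected was 3.50% (2.37 to 4.96) in single-dose PBS and 17.1% (14.5 to 20.1) in bleomycin, and 4.02% (3.51 to 4.58) and 13.3% (12.4 to 14.3) in the repetitive pair.

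Cdkn1a molecules were concentrated in few cells. The 5% of FBs with the most Cdkn1a UMIs held 59.2% of them in single-dose PBS, 43.4% in single-dose bleomycin, 50.1% in repetitive PBS and 50.2% in repetitive bleomycin. The highest single FB held 21 UMIs in single-dose PBS, 89 in single-dose bleomycin, 137 in repetitive PBS and 102 in repetitive bleomycin. The 137 were in the only cycling FB of repetitive PBS, and the highest other FB there held 64. These shares were read without thinning and depend on depth.

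Of the 28 other p53 targets some were higher and some lower. After the single dose 12 of the 26 with enough UMIs were at least 1.5-fold higher and 4 lower, where 18.4% and 9.93% of all genes were, with a median log2 difference of 0.46 against 0.09 over all genes. After repetitive dosing 9 of 28 were higher and 3 lower, where 12.5% and 5.25% of all genes were, with a median of 0.41 against 0.10. The highest in both was Psrc1, a microtubule-binding protein of mitotic cells, at 2.03 CPM in PBS and 23.5 CPM in bleomycin after the single dose and at 1.71 and 11.2 CPM after repetitive dosing. The lowest were Xpc, a DNA damage sensor of nucleotide excision repair, after the single dose (31.8 CPM in PBS, 13.2 CPM in bleomycin) and the antiproliferative gene Btg2 after repetitive dosing (1972 and 869.5 CPM).

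Other gene groups and markers differed between the same cells. Of 10 early response genes induced by tissue dissociation, such as Fos and Atf3, 9 were at least 1.5-fold lower in single-dose bleomycin FBs and 8 in repetitive bleomycin FBs, with medians of -1.33 and -0.84 on the log2 scale against 0.09 and 0.10 over all genes, Atf3 lowest and Ier3 highest (0.42 and -0.12). Of 10 cell cycle genes, 10 and 9 were higher and 0 lower, with medians of 3.32 and 2.00, Ube2c highest and Cenpf (1.97) and Rrm2 (0.16) lowest, while cycling FBs were only 16 and 15 cells. Summed immune markers were at 12.8 CPM in PBS and 25.1 CPM in bleomycin FBs after the single dose and at 1.97 and 10.7 CPM after repetitive dosing, and mural markers were at 68.1 and 197 CPM and at 45.7 and 83.6 CPM. Their part in the member ratios was not tested. Without the cycling FBs the member counts of both FB comparisons were also 7, which does not show how far the ratios moved. Trp53, the gene of p53 itself, was named after its values were seen: it stood at 44.8 and 55.3 CPM and at 37.9 and 44.5 CPM. Of the p53 regulators with enough UMIs, 1 of 10 was higher after the single dose and 1 of 12 after repetitive dosing, and 0 were lower, with medians of 0.14 and 0.22. The one higher was Cdkn2a (encoding p16 and Arf) in both pairs, on 2 against 27 UMIs and 17 against 204 UMIs, and the lowest were Ppm1d (-0.57) and Trp73 (-0.22). Of the integrated stress response genes with enough UMIs, 4 of 10 were higher and 1 lower after the single dose (18.4% and 9.93% of all genes) and 2 of 12 and 1 of 12 after repetitive dosing (12.5% and 5.25%), with medians of -0.09 and 0.15, Asns highest and Atf5 lowest in both. Of 8 senescence genes, 6 were higher and 1 lower after the single dose and 3 and 1 after repetitive dosing, with medians of 1.11 and 0.25, the p15 gene Cdkn2b highest and Igfbp3 lowest.

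Other cells that came through the sort gave mixed counts. In the mixed myeloid and other immune cells of the repetitive pair (98 and 117 cells), Cdkn1a was at 279 CPM in PBS and 176 CPM in bleomycin, a ratio of 0.630 (0.519 to 0.765), where 13.3% of 8282 genes were 1.5-fold higher and 18.6% lower. There 3 members were lower (Cdkn1a, Sesn2 and Perp) and 3 higher (Gdf15, Phlda3 and Eda2r, the last on 1 UMI against 0). Gdf15 had 7 UMIs in PBS and 99 in bleomycin. These cells were not alike in the 2 libraries: cycling markers summed to 659 and 283 CPM, endothelial markers to 235 and 15.1 CPM, AEC2 markers to 76.7 and 345 CPM and the PATS list to 1086 and 2564 CPM, and their part was not tested. These comparisons of other cells were added after the data had been examined. In endothelial cells (47 in PBS and 22 in bleomycin) the Cdkn1a ratio was 0.918 (0.670 to 1.25), and 5 members were higher and 0 lower, where 15.2% and 17.1% of 4277 genes were. Of those 5, only Bax, with a ratio of 1.58 (1.02 to 2.47), had more than 8 UMIs in either library. In T cells (76 and 53) 3 were higher and 2 lower, where 15.1% and 24.3% of 5010 genes were, with Cdkn1a at 2 and 21 UMIs, 12 of the 21 in 1 cell. In B cells (38 and 74) 3 were higher and 2 lower, where 13.9% and 17.1% of 3497 genes were, but of these only Trp53inp1 (9 and 46 UMIs) and Mdm2 (6 and 8 UMIs) had more than 3 UMIs.

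The organoids held AEC2s that had not met bleomycin and allowed the same genes to be read in epithelium. Cells were gated as AEC2-like (Sftpc, Lamp3, Slc34a2), AEC1-like (Ager, Hopx) and PATS-like (Cldn4, Krt8, Krt19). PATS, the pre-alveolar type-1 transitional state, is an intermediate between AEC2s and flat AEC1s that is known for p53 activity. There were 1036 AEC2-like, 186 AEC1-like and 176 PATS-like cells with normal FBs and 762, 179 and 292 with fibrogenic FBs. In PATS-like cells the 8 PATS markers summed to 23470 and 24654 CPM and the 7 AEC2 markers to 4304 and 2416 CPM, with medians over cells of 413 and 385 CPM. In AEC2-like cells the AEC2 markers summed to 100810 and 101627 CPM. AEC1-like cells still held AEC2 markers, with medians over cells of 13769 and 13444 CPM. The Cldn4 limit had few cells near it, with 18 epithelial cells just below and 23 just above it in the first library and 17 and 19 in the second.

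All members but Sesn2 were higher in PATS-like than in AEC2-like, AEC1-like or cycling cells. With normal FBs, Cdkn1a was at 138 CPM in AEC2-like, 446 CPM in AEC1-like and 772 CPM in PATS-like cells. With fibrogenic FBs it was at 216, 486 and 848 CPM. The ratio of PATS-like to AEC2-like cells was 5.59 (5.40 to 5.79) and 3.92 (3.80 to 4.04). In both libraries 9 of the 10 members were at least 1.5-fold higher in PATS-like cells, where 30.7% of 14551 genes and 28.1% of 14366 genes were, and none was lower, where 17.3% and 17.8% were. The median gene was itself higher by 0.21 and 0.18 on the log2 scale in these contrasts, and the median member by 2.05 and 1.89. Subtracting the median gene left 9 members past the limit in both, and at 2-fold 9 were still higher in both (16.8% and 14.6% of genes). FB markers summed to 347 CPM in PATS-like and 167 CPM in AEC2-like cells of the first library and to 477 and 248 CPM in the second, and mesothelial markers to 279.8 and 0.682 CPM and to 365 and 0.94 CPM. Of the 4 mesothelial markers, 3 had 0 UMIs in PATS-like cells of the first library and 2 in those of the second. Their part in these ratios was not tested.

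**Figure D3:**
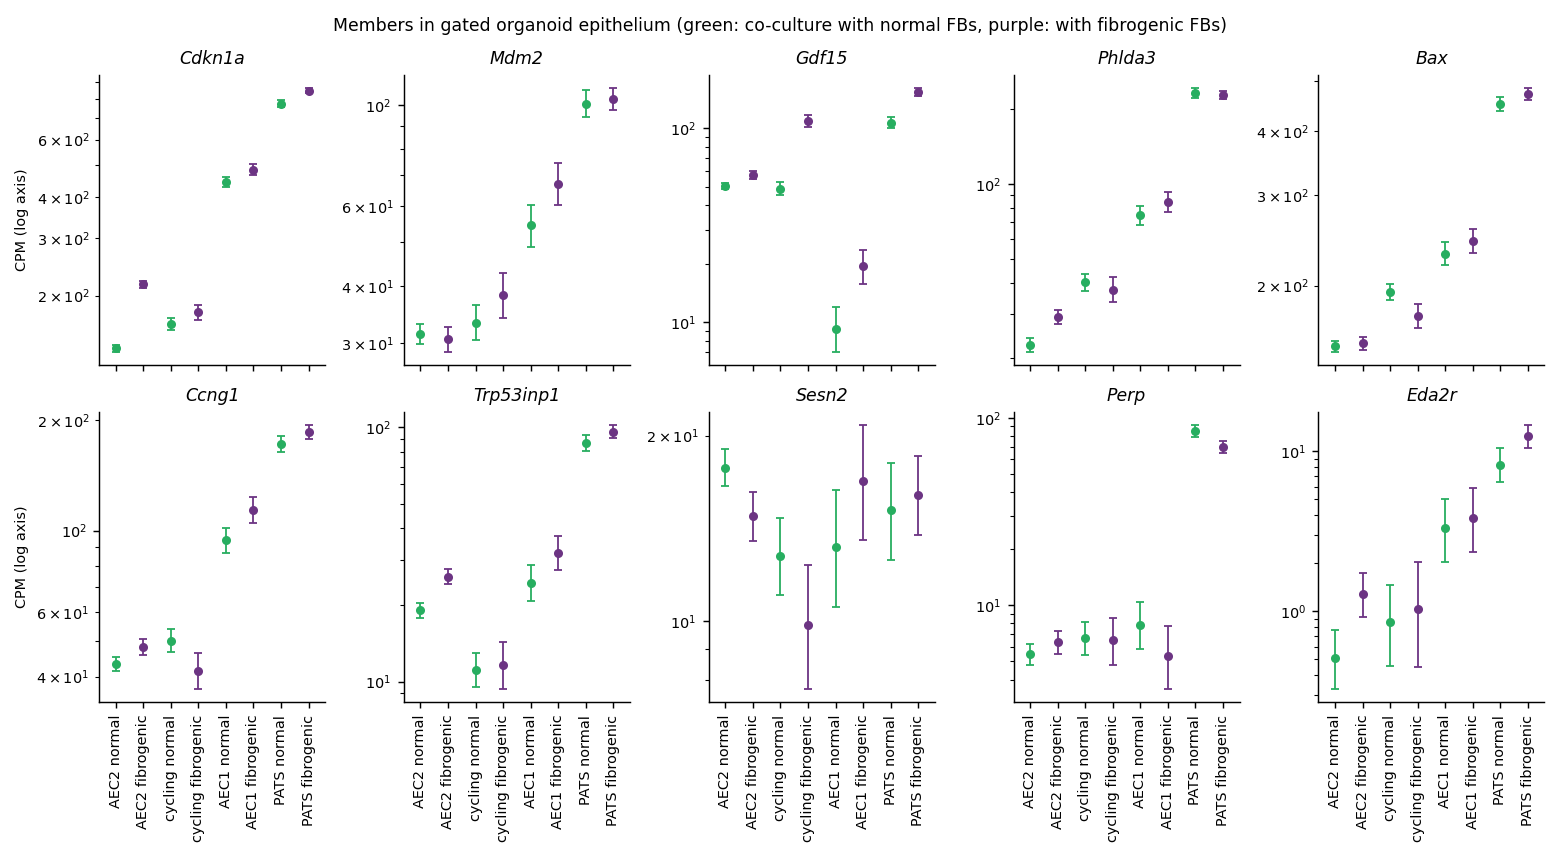
CPM of each member (log axis, one panel a gene) in AEC2-like, cycling, AEC1-like and PATS-like organoid cells; green points are co-cultures with normal FBs, purple points with fibrogenic FBs, and bars are exact 95% counting intervals. Cdkn1a climbed from 138 and 216 CPM in AEC2-like cells to 772 and 848 CPM in PATS-like cells, whereas Gdf15 was lowest in AEC1-like cells and Sesn2 stayed between 9.84 and 17.7 CPM.

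Perp, Eda2r and Phlda3 separated PATS-like from AEC2-like cells most widely. Perp, nearly absent from FBs, was at 5.45 CPM in AEC2-like, 7.85 CPM in AEC1-like and 84.9 CPM in PATS-like cells with normal FBs, and at 6.33, 5.38 and 69.8 CPM with fibrogenic FBs. Its PATS-like to AEC2-like ratios were 15.6 (13.5 to 18.0) and 11.0 (9.45 to 12.9). Eda2r was at 0.511 CPM (24 UMIs), 3.30 CPM and 8.23 CPM with normal FBs and at 1.28, 3.84 and 12.4 CPM with fibrogenic FBs, for ratios of 16.1 (9.97 to 26.8) and 9.65 (6.77 to 14.0). High Eda2r was not particular to PATS-like cells. Epithelial cells that passed no gate held it at 15.1 CPM with fibrogenic FBs, above the PATS-like level. Phlda3 was at 22.5 CPM in AEC2-like and 233 CPM in PATS-like cells with normal FBs and at 29.1 and 228 CPM with fibrogenic FBs, for ratios of 10.3 (9.58 to 11.2) and 7.84 (7.28 to 8.46).

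Among the other nuclear and mitochondrial members the ratios were smaller and close between the 2 libraries. Ccng1 gave 4.00 (3.73 to 4.28) and 3.87 (3.63 to 4.14). Trp53inp1 gave 4.56 (4.13 to 5.04) and 3.72 (3.39 to 4.07). Mdm2 was at 31.4 and 101 CPM with normal FBs and 30.6 and 103 CPM with fibrogenic FBs, ratios of 3.21 (2.94 to 3.49) and 3.37 (3.09 to 3.67). Bax gave 2.97 (2.85 to 3.09) and 3.07 (2.95 to 3.19). The intervals of the 2 libraries overlapped for Ccng1, Mdm2 and Bax.

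The stress members Gdf15 and Sesn2 differed from the rest. Gdf15 was at 50.3 CPM in AEC2-like, 9.26 CPM in AEC1-like and 107 CPM in PATS-like cells with normal FBs, and at 57.2, 19.4 and 154 CPM with fibrogenic FBs. It was the member that was lower in AEC1-like than in AEC2-like cells by more than 1.5-fold, with ratios of 0.184 (0.140 to 0.238) and 0.339 (0.275 to 0.414). Sesn2 showed no clear difference, with PATS-like to AEC2-like ratios of 0.852 (0.699 to 1.03) and 1.08 (0.909 to 1.29). AEC1-like cells, compared with the same AEC2-like cells, had 6 members at least 1.5-fold higher in each library, where 19.1% of 14221 genes and 18.8% of 13744 genes were, and 1 lower, where 15.8% and 17.1% were. Cdkn1a was 3.23-fold (3.09 to 3.37) and 2.24-fold (2.14 to 2.35) higher in AEC1-like cells. The AEC1-like comparison was added after the data had been examined.

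Per cell, 95.5% (91.2 to 98.0) of PATS-like cells with normal FBs and 94.9% (91.7 to 97.1) with fibrogenic FBs held at least 1 member among 2000 drawn UMIs, against 55.8% (52.7 to 58.8) and 56.0% (52.4 to 59.6) of AEC2-like cells, and 56.8% (49.2 to 64.2) and 48.3% (42.4 to 54.2) held at least 3. In AEC2-like cells the shares with at least 3 were 4.34% (3.19 to 5.77) and 7.09% (5.37 to 9.15). A Cdkn1a UMI was found in 69.3% (61.9 to 76.0) and 64.4% (58.6 to 69.9) of PATS-like cells at this depth and in 19.0% (16.7 to 21.5) and 25.5% (22.4 to 28.7) of AEC2-like cells. The unthinned shares were 99.4% and 89.4%, and 79.2% and 85.2%. The share in organoid FBs was 25.0% (23.2 to 26.8) and 24.5% (23.1 to 26.0), and with no organoid cell type that should lack Cdkn1a a background share from free RNA could not be given for it. Perp, an epithelial gene, was found in 0.264% and 0.0852% of organoid FBs at this depth. It was itself low in AEC2-like cells, so its share gives no background for Cdkn1a. The 5% of cells with the most Cdkn1a held 18.9% and 22.0% of it in PATS-like cells and 33.6% and 33.4% in AEC2-like cells.

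**Figure D4:**
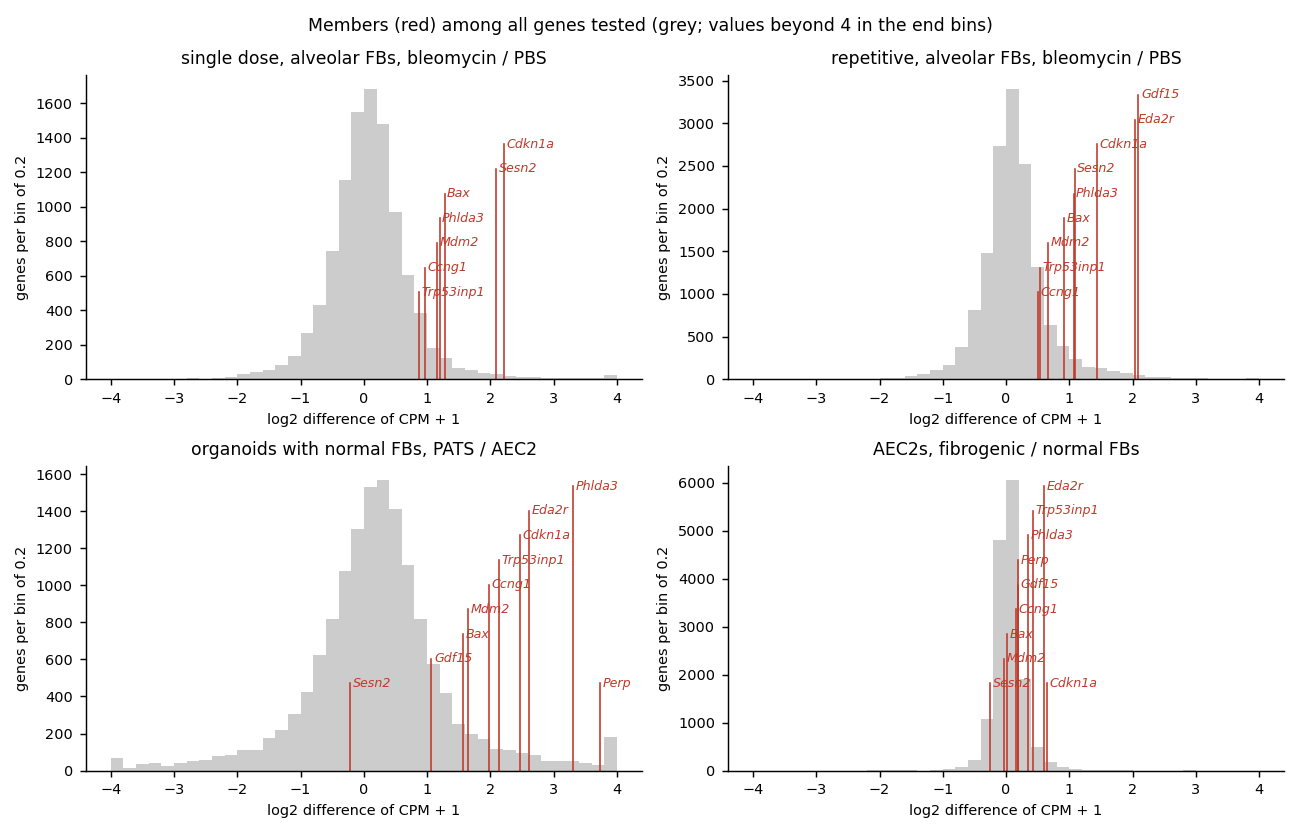
Grey bars count all genes with at least 20 UMIs by their log2 difference of CPM + 1 (bins of 0.2, end bins hold values beyond 4), and red lines mark the members that reach 20 UMIs in 4 comparisons. The members sat in the right flank of the bleomycin over PBS contrasts of alveolar FBs (medians 1.20 and 1.07), further right in PATS-like over AEC2-like cells (median 2.05), and near the centre in AEC2-like cells with fibrogenic over normal FBs (median 0.18).

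The other p53 targets were also high in PATS-like cells. Of the 27 with enough UMIs in organoids with normal FBs, 20 were at least 1.5-fold higher and 1 lower, and of 28 with fibrogenic FBs, 21 were higher and 1 lower, with median log2 differences of 1.13 and 1.15 against 0.21 and 0.18 over all genes. The highest in both was Pmaip1, the BH3-only death gene Noxa, which had 10 and 6 UMIs in AEC2-like cells and stood at 101 and 117 CPM in PATS-like cells. The lowest was the metabolic enzyme gene Dcxr, at 109 and 52.0 CPM and at 131 and 72.7 CPM in AEC2-like and PATS-like cells. Of 10 p53 regulators with enough UMIs, 5 were higher and 1 lower in the first library and 3 and 1 in the second, with medians of 0.60 and 0.30. Cdkn2a was highest in both, at 1.41 and 173 CPM in the first library and 1.69 and 181 CPM in the second, and the checkpoint kinase gene Chek1 was lowest. Trp53, again named after its values were seen, was at 20.9 CPM in AEC2-like and 96.2 CPM in PATS-like cells with normal FBs and at 23.8 and 98.2 CPM with fibrogenic FBs. The remaining lists are read against the 30.7% and 28.1% of all genes that were higher and the 17.3% and 17.8% that were lower. Of 10 cell cycle genes, 1 was higher and 5 lower in the first library and 2 higher and 3 lower in the second, with medians of -0.70 and -0.26, Tpx2 highest and Mki67 and Rrm2 lowest. Of 12 integrated stress response genes, 5 were higher and 3 lower in both, with medians of 0.24 and 0.41, Nupr1 highest and Slc7a11 and Vldlr lowest. Of 10 early response genes, 4 and 3 were higher and 3 lower, with medians of 0.05 and 0.08, Ier3 highest and Egr1 lowest. Of 8 senescence genes, 7 and 6 were higher and 1 was lower, with medians of 1.01 and 1.27, Cdkn2a, which stands in 2 of the lists, highest and Il6 lowest.

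**Figure D5:**
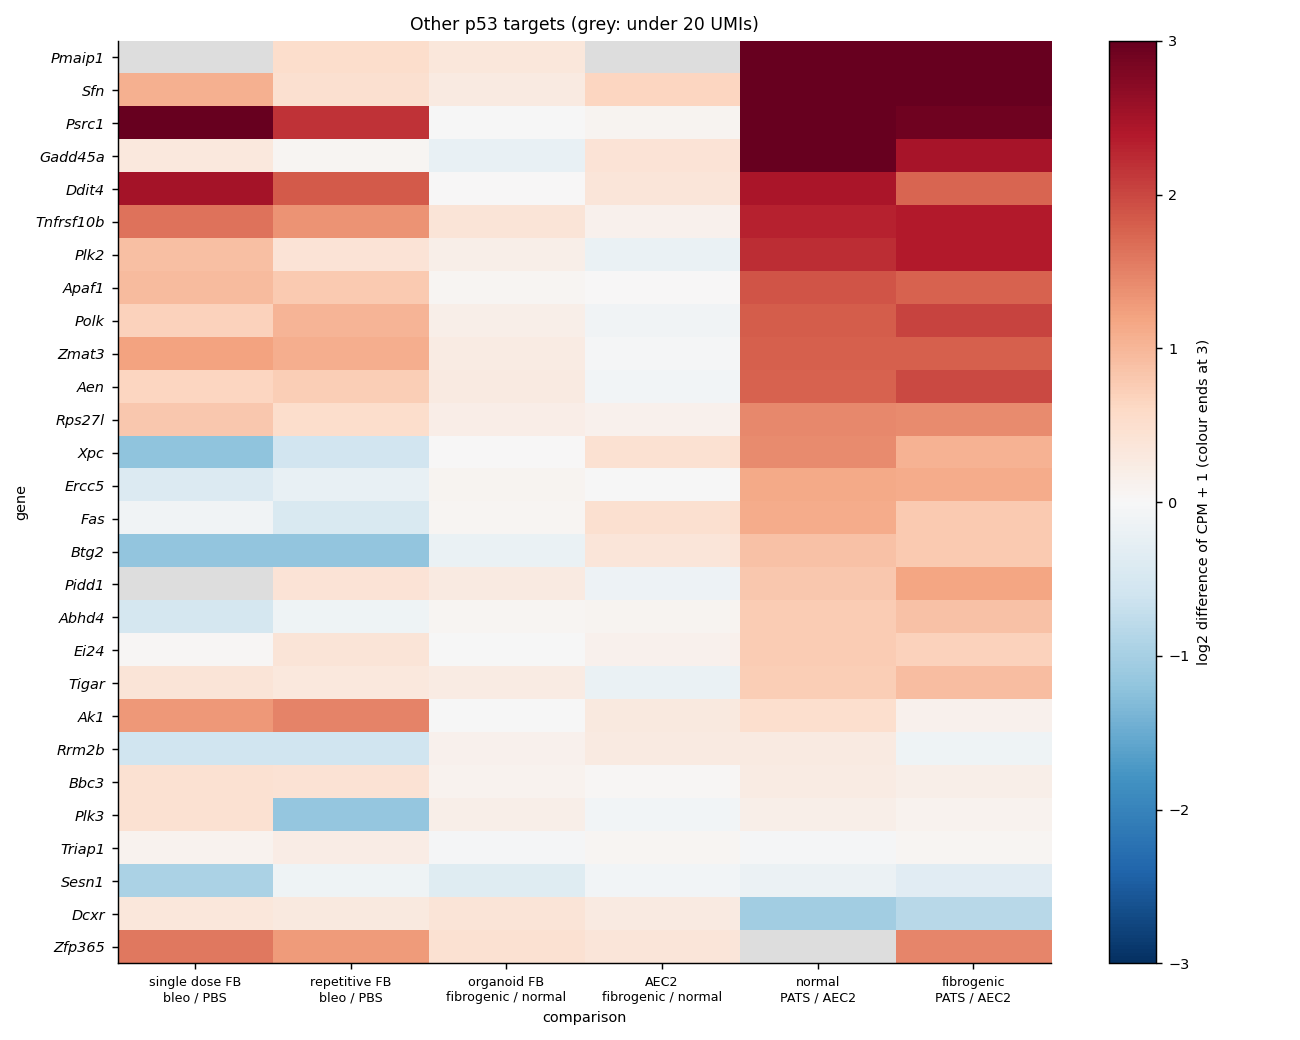
Log2 difference of CPM + 1 (colour, ending at 3) of 28 other p53 targets (rows) in 6 comparisons (columns), with grey for fewer than 20 UMIs. The PATS-like over AEC2-like columns are mostly red (20 and 21 genes past 1.5-fold), the 2 bleomycin columns are mixed, and the fibrogenic over normal columns are pale.

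Few members differed with the origin of the FBs. In AEC2-like cells, 2 of the 10 members were at least 1.5-fold higher with fibrogenic than with normal FBs, where 2.07% of 14970 genes were, and 0 were lower, where 0.882% were. These were Cdkn1a, at 216 and 138 CPM, a ratio of 1.57 (1.51 to 1.62) above 98.4% of genes, and Eda2r, at 1.28 and 0.511 CPM (41 and 24 UMIs), a ratio of 2.51 (1.48 to 4.35). At 2-fold 0 were higher, where 0.314% of genes were. The call of Eda2r was lost with stricter gates, with centring on the median gene and with a pseudocount of 10 CPM (log2 differences of 0.43, 0.56 and 0.10), and that of Cdkn1a was kept with all 3 (0.63, 0.61 and 0.61). Trp53inp1 and Phlda3 came next, with ratios of 1.36 (1.24 to 1.5) and 1.29 (1.18 to 1.41). Mdm2 and Bax did not differ beyond counting error, at 0.974 (0.898 to 1.06) and 1.01 (0.978 to 1.05). FB markers in these cells summed to 248 CPM with fibrogenic and 167 CPM with normal FBs, and their part was not tested. Gated AEC2-like cells made up 762 of 1526 epithelial cells with fibrogenic FBs and 1036 of 1816 with normal FBs.

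In PATS-like cells 0 of the 10 members were 1.5-fold higher with fibrogenic FBs, where 3.63% of 12710 genes were, and 0 were lower, where 3.52% were. Cdkn1a gave a ratio of 1.10 (1.06 to 1.13), Gdf15 1.45 (1.33 to 1.57) and Perp 0.822 (0.742 to 0.911). The Cdkn1a ratio of AEC2-like cells lay outside the interval of PATS-like cells. The PATS-like cells of the organoid libraries were not alike in other markers. With fibrogenic and normal FBs, their AEC1 markers summed to 2280 and 965 CPM, with medians over cells of 773 and 353 CPM. Their AEC2 markers summed to 2416 and 4304 CPM. The part of these differences in the member ratios was not tested.

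The organoid FBs themselves (2277 normal and 3521 fibrogenic) differed in few members after 2 weeks of culture. Of the 10, only Gdf15, at 10.0 and 18.7 CPM, was past 1.5-fold, with a ratio of 1.86 (1.74 to 1.99), where 1.45% of 18304 genes were higher, and 0 members were lower, where 2.55% were. Gdf15 lay above 99.4% of genes. At 2-fold 0 were higher (0.333% of genes). Markers of other cells in these FBs summed, with normal and fibrogenic FBs, to 3576 and 2250 CPM for AEC2s, 2.25 and 11.8 CPM for immune cells and 70.9 and 107 CPM for mural cells, and their part was not tested. Ccng1 gave 1.31 (1.28 to 1.34), and Cdkn1a, at 229 and 255 CPM, gave 1.11 (1.10 to 1.13). The counts behind these intervals are large, so that they are narrow, but they do not cover differences between cultures. Compared with FBs fresh from PBS lungs in a contrast of different assays added after the data had been examined, cultured normal FBs had 6 members past 1.5-fold, where 35.1% of 13738 genes were and the median gene was higher by 0.24 on the log2 scale. Their Cdkn1a level of 229 CPM lay between the 103 and 342 CPM of the single-dose pair. Fibrogenic organoid FBs against single-dose bleomycin lung FBs had 3 members higher and 1 lower, where 25.1% and 20.5% of 14053 genes were. These contrasts cross experiments and culture, which cannot be told apart from library. AEC2 markers, at 3576 and 2250 CPM in the organoid FBs, summed to 117 CPM in the PBS and 96.8 CPM in the bleomycin lung FBs of the single-dose pair, and their part was not tested.

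Across groups of at least 50 cells, the genes whose levels were most like Cdkn1a were read as a description, since the groups share libraries. Over 19 FB groups the closest of 10317 genes by Pearson correlation of log2 CPM were Fat1 (0.858), Calu (0.845), Slc35e4 (0.841), Chsy1 (0.839) and Ncstn (0.831), and the closest member was Eda2r (0.754). These FB groups took in cultured organoid FBs beside fresh lung FBs, so the correlations also span different assays. Over 10 epithelial groups the closest of 9757 genes were Dctn4 (0.992), 5033430I15Rik, Eva1a (0.989), Chrnb1 (0.987) and Ypel5 (0.986), with Ccng1 at rank 11 (0.980). The other members ranked lower over the epithelial groups: Phlda3 at 111 (0.952), Eda2r at 147 (0.948), Mdm2 at 163 (0.946), Trp53inp1 at 481 (0.912), Bax at 531 (0.909), Perp at 1813 (0.784), Sesn2 at 4981 (0.293) and Gdf15 at 5949 (0.0452). Over the FB groups the values ran from 0.196 for Trp53inp1 to 0.754 for Eda2r, and Gdf15 (0.666) and Sesn2 (0.611) lay closer to Cdkn1a there than in the epithelium.

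The genes lie on GRCm38, by GENCODE M21, as protein-coding genes at chr17:29090976-29100727 (Cdkn1a, plus strand), chr10:117688875-117710758 (Mdm2, minus), chr8:70629393-70632456 (Gdf15, minus), chr1:135766119-135769136 (Phlda3, plus), chr7:45461697-45466898 (Bax, minus), chr11:40748552-40755311 (Ccng1, minus), chr4:11156431-11174379 (Trp53inp1, plus), chr4:132492032-132510501 (Sesn2, minus), chr10:18845020-18857073 (Perp, plus) and chrX:97333840-97377216 (Eda2r, minus). Chromosomes are shared by 2 pairs, Mdm2 with Perp and Trp53inp1 with Sesn2, and no 2 members overlap.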

How the data were processed

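The authors deposited one table of UMI counts per library, genes by barcodes; their processing notes name Cell Ranger 3.0.1, Seurat 3 and mm10. The methods of the single-dose libraries give GRCm38 with GENCODE M17, and neither normalization nor cell labels were in the deposited counts. Members and lists were chosen with earlier results of these data known, and all members were named. Of each other list, counts, the median and the extremes are given for all FBs and for PATS-like over AEC2-like cells. Cells were gated with Python 3.11.15, numpy 2.4.6 and scipy 1.17.1 on marker counts. Limits were set on marker distributions, without the members. FBs needed 4 of 8 FB markers and at most 1 marker of each other class (2 mural markers). Cthrc1+ and Sfrp1+ FBs needed 2 UMIs. PATS-like cells needed 200 CPM of Cldn4, 1000 of Krt8 and 500 of Krt19. No doublet caller was run. The limits removed some barcodes with markers of several classes, and others stayed in the groups. Immune, endothelial and epithelial cells of the lung could hold up to 4 FB markers. UMIs were summed per group, ratios of CPM carry exact conditional binomial intervals, levels exact Poisson intervals and shares exact Clopper-Pearson intervals. Calls used log2(CPM + 1) at 1.5-fold, with background over genes with at least 20 UMIs in both groups together. Members were counted whatever their UMIs. The code was tested on simulated data. In droplet counts, amplification duplicates are collapsed by UMI, and low-depth cells lose sparse genes first.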

Additional observations from a re-analysis of the deposited data

Results flagged for a closer look

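The values below were picked out because a member differed in opposite directions, each beyond its counting interval, under the same contrast in 2 settings, among 16 pairs of contrasts looked at for all members. None of these differences was tested, since each condition was 1 library. In Cthrc1+ over alveolar FBs of the bleomycin libraries, Cdkn1a gave 1.27 (1.13 to 1.43) after the single dose and 0.716 (0.664 to 0.772) after repetitive dosing. Of the Cthrc1+ FBs, 4 of 63 and 10 of 183 cells held 41.9% and 49.7% of the Cdkn1a UMIs. In Sfrp1+ over alveolar FBs, Ccng1 gave 0.783 (0.652 to 0.943) after the single dose and 1.11 (1.01 to 1.23) after repetitive dosing. With fibrogenic over normal FBs in organoids, Sesn2 gave 1.06 (1.00 to 1.12) in FBs and 0.833 (0.742 to 0.934) in AEC2-like cells. After repetitive bleomycin over PBS, Cdkn1a gave 1.87 in FBs and 0.630 (0.519 to 0.765) in other immune cells, and Sesn2 gave 2.04 in FBs and 0.448 (0.216 to 0.904) in other immune cells, on 22 and 15 UMIs. The immune cells of the 2 libraries also differed in other markers, with endothelial markers at 235 CPM in PBS and 15.1 CPM in bleomycin and AEC2 markers at 76.7 and 345 CPM. Trp53inp1 gave 1.38 in FBs and 0.488 (0.304 to 0.762) in T cells, on 75 and 28 UMIs.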

How the results depend on the processing

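No paired analysis was possible because each condition was 1 library, and no library could be left out. Of the recomputed counts of members past the limit in the 13 planned comparisons, 243 stayed within 1.5 times the count reported and 23 did not. A reported count of 0 that stayed 0 is among the 243. The limit of 2-fold, the pseudocount of 10 CPM and the minimum of 20 UMIs cannot raise a 0. For counts of 0 under these settings the outcome was therefore fixed beforehand. Of 582 recomputed member ratios whose reported value passed 1.5-fold, 582 kept their direction. Another pseudocount, the limit of 2-fold and the minimum of 20 UMIs cannot turn a direction, so for these settings that outcome was fixed beforehand. With a pseudocount of 10 CPM, members higher fell to 4 in repetitive FBs, to 0 in Cthrc1+ over alveolar FBs of both experiments, to 1 in AEC2-like cells with fibrogenic FBs and to 0 in organoid FBs, and members lower in repetitive Cthrc1+ FBs fell to 1. With a limit of 2-fold, members higher were 2 in repetitive FBs, 1 and 0 in single-dose and repetitive MatrixFBs and 0 in repetitive Cthrc1+ FBs, AEC2-like cells and organoid FBs, and members lower were 0 in single-dose and 1 in repetitive Cthrc1+ FBs. With stricter gates, repetitive Cthrc1+ FBs had 0 higher and 1 lower, single-dose Sfrp1+ FBs 1 higher and AEC2-like cells 1 higher. Without the 5% of barcodes with the most UMIs, Cthrc1+ FBs had 3 lower after the single dose and 4 after repetitive dosing, and PATS-like cells with fibrogenic FBs had 1 higher. With every cell weighted equally, single-dose Cthrc1+ FBs had 0 higher and 2 lower. Centring on the median gene left 1 higher in AEC2-like cells, and a minimum of 20 UMIs left 0 higher in repetitive Cthrc1+ FBs. The causes of these moves were not tested. Depth limits Perp in FBs and Gdf15, Sesn2 and Eda2r in single-dose PBS FBs, which rest on 0 to 14 UMIs.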

Other observations

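Epithelial cells of the organoids that passed none of the gates (166 with normal and 160 with fibrogenic FBs) held Cdkn1a at 468 and 655 CPM, between AEC2-like and PATS-like cells of the same library. Cycling epithelial cells (252 and 133) held Cdkn1a at 164 and 178 CPM, and their Trp53inp1, at 11.1 and 11.7 CPM, was below the 19.0 and 25.9 CPM of AEC2-like cells. Gdf15 in cycling cells was at 48.8 CPM with normal and 109 CPM with fibrogenic FBs, a ratio of 2.23 (2.02 to 2.47). The same ratio of Gdf15 was 2.09 (1.5 to 2.94) in AEC1-like cells and 1.14 (1.07 to 1.21) in AEC2-like cells, and these intervals did not overlap. Cycling FBs in the organoids (320 and 475) held Cdkn1a at 268 and 278 CPM, against 220 and 248 CPM in the other FBs of those libraries. Barcodes that met neither the epithelial nor the FB gate (285 and 668) were left out of all comparisons, and their Perp stood at 9.99 and 11.2 CPM.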
